A study of Mus musculus with 4 samples.

Results

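The cytosolic ribosomal protein genes encode the protein part of the ribosome that translates nuclear mRNAs. They were read here in long-term haematopoietic stem cells of the mouse (LT-HSCs), the long-lived cells at the top of blood formation. A gene was a member if it is protein-coding in GENCODE M21 and its symbol is Rps or Rpl with a number, or is Rpsa, Rplp0, Rplp1, Rplp2 or Fau; Rps27l and the Rps6 kinases were left out. This gave 83 genes, 32 of the small and 51 of the large subunit, of 21870 protein-coding genes and 51912 Ensembl genes in each library. Rack1, which sits on the small subunit, carries another symbol and was not a member.

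The study compared 2 libraries of LT-HSCs lacking Fam122a (Fam122a KO, here KO 1 and KO 2) with 2 wild-type libraries (WT 1 and WT 2). All groups were C57BL/6 mice aged 8 to 12 weeks. Each library held RNA of cells sorted from a pool of 3 animals by the gate LSK CD34- Flk2- (lineage-negative, Sca1+ and Kit+ cells without CD34 and Flk2). How Fam122a was deleted, and in which cells, is not stated in the labels. RNA was extracted with Trizol and amplified as full-length cDNA with the SMART-Seq v4 kit for very small inputs. Values are FPKM, fragments scaled to transcript length and to the size of the library.

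Most ribosomal proteins are needed in the same number as the rRNA they bind, so cells tend to hold the mRNAs of this family in step, and surplus protein is degraded. Their mRNAs begin with a run of pyrimidines (the 5′ terminal oligopyrimidine, or TOP, motif) through which the kinase mTORC1 and the protein LARP1 set how much is translated and kept. LT-HSCs are known for a low rate of protein synthesis, and loss of a single copy of several of these genes causes inherited anaemia in humans. The protein of Fam122a is known to inhibit the phosphatase PP2A.

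Fam122a was listed at 0 in both KO 1 and KO 2, and at 18.4 FPKM in WT 1 and 7.46 FPKM in WT 2, as the labels have it. WT 2 stood apart from the other libraries. Loci with MSTRG identifiers, which name no gene, held 1.74% and 1.81% of all FPKM in KO 1 and KO 2, against 9.14% in WT 1 and 53.9% in WT 2. The steps between low values gave depths of about 6840000 and 6000000 fragments in KO 1 and KO 2, and 4280000 and 2500000 in WT 1 and WT 2. The 10 markers of LT-HSCs and of the positive side of their gate were above 0 in KO 1, KO 2 and WT 1, and Ly6a (Sca1) and Procr were at 0 in WT 2. Together these 10 genes held 0.0620% to 0.0706% of the Ensembl FPKM of a library. Genes of the markers that the gate selects against were present too. Cd34 had 87.7 and 62.1 FPKM in KO 1 and KO 2, against 179 FPKM in WT 1 and 18.2 FPKM in WT 2, and Flt3, the gene of Flk2, had 36.2 and 24.7 FPKM in KO 1 and KO 2, against 26.2 FPKM in WT 1 and 16.1 FPKM in WT 2. In KO 1, KO 2 and WT 1, markers of neutrophils, erythroid cells and B cells held larger shares than those of LT-HSCs, and in WT 2 smaller ones. The 10 neutrophil markers held 9.43% and 8.36% in KO 1 and KO 2, against 18.5% in WT 1 and 0.0585% in WT 2, and none was at 0. The 10 erythroid markers held 7.31% and 9.94% in the KO libraries, against 5.42% in WT 1 and 0.0319% in WT 2, where Epb42 was at 0. B-cell markers held 0.553% and 0.913% in the KO libraries, against 0.617% in WT 1 and 0.00641% in WT 2, and T-cell markers at most 0.00236% anywhere.

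Ribosomal protein mRNAs were among the most abundant transcripts in KO 1, KO 2 and WT 1, and scarce in WT 2. The 83 genes summed to 39347 and 33566 FPKM in KO 1 and KO 2, against 49449 FPKM in WT 1 and 1279 FPKM in WT 2. That was 4.81% and 4.19% of the Ensembl FPKM in KO 1 and KO 2, 5.19% in WT 1 and 0.215% in WT 2. Among the 100 highest protein-coding genes of a library, 19 were members in KO 1 and 15 in KO 2, against 23 in WT 1 and 0 in WT 2. The marker shares of erythroid and neutrophil cells were likewise lowest in WT 2, and their part in these levels was not tested. In bulk libraries such as these, fewer cells of a type and less RNA per cell cannot be told apart.

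**Figure D1:**
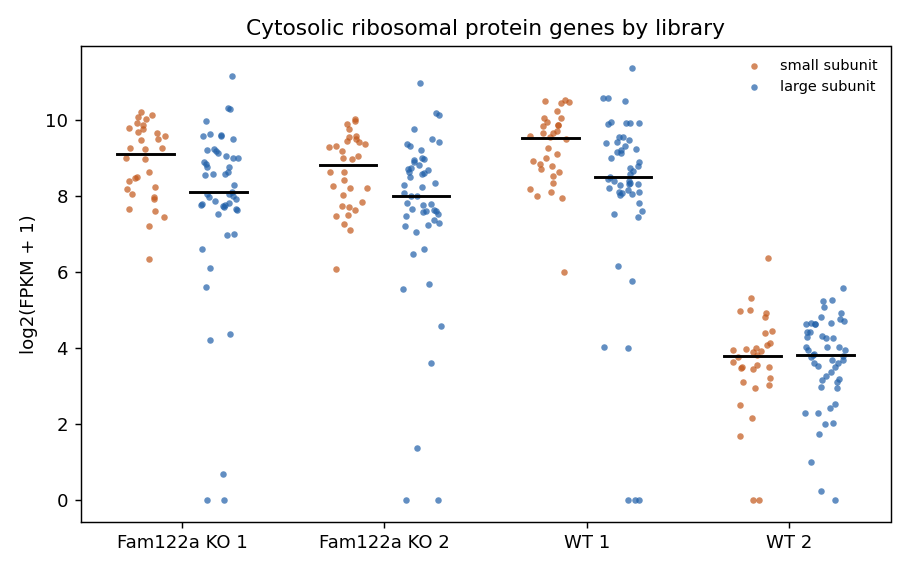
Level of each ribosomal protein gene, as log2(FPKM + 1), in KO 1, KO 2, WT 1 and WT 2; each point is a gene, orange for the small and blue for the large subunit, and black lines are medians. KO 1, KO 2 and WT 1 share the same range, with subunit medians between 253 and 729 FPKM, and WT 2 lies far below them with medians of 12.8 and 13.1 FPKM.

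In the plot of levels by library, the medians of both subunits lay in the same range in KO 1, KO 2 and WT 1, and far lower in WT 2. The median member was at 375.5 and 311.6 FPKM in KO 1 and KO 2, against 468 FPKM in WT 1 and 13.02 FPKM in WT 2. Small-subunit genes had medians of 548 and 447 FPKM in KO 1 and KO 2, against 729 FPKM in WT 1 and 12.8 FPKM in WT 2. Large-subunit genes had medians of 275 and 253 FPKM in KO 1 and KO 2, against 359.8 FPKM in WT 1 and 13.1 FPKM in WT 2. The median member rested on 1235 and 862 estimated fragments in KO 1 and KO 2, against 982 in WT 1 and 17.9 in WT 2. Across the 83 genes, log2 levels correlated with Pearson's r = 0.996 between KO 1 and KO 2, and with r = 0.991 and 0.985 between KO 1 or KO 2 and WT 1. With WT 2 the correlations were 0.608 for KO 1, 0.597 for KO 2 and 0.627 for WT 1. These correlations are over genes of the same libraries and describe them only.

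Rpl41, Rpl13, Rps25 and Rps18 were among the 5 members with the highest means. Rpl41, which encodes the shortest ribosomal protein, had 1241 and 1155 FPKM in KO 1 and KO 2, against 1519 FPKM in WT 1 and 36.5 FPKM in WT 2. Rpl13 had 1268 and 1115 FPKM in the KO libraries, against 1435 FPKM in WT 1 and 25.3 FPKM in WT 2. On the small subunit, Rps25 had 1114 and 951 FPKM in the KO libraries, against 1451 FPKM in WT 1 and 29.4 FPKM in WT 2. Rps18, a protein of the subunit's head, had 1179.55 and 1042 FPKM in the KO libraries, against 1446 FPKM in WT 1 and 15.9 FPKM in WT 2. These 4 genes were below WT 1 in both KO libraries as deposited. After scaling to equal totals their log2 differences between KO and WT 1 ran between -0.26 (Rps25) and -0.04 (Rpl13), and limma's adjusted p lay between 0.381 and 0.886.

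Over all 4 libraries, none of the 80 members that passed the filter on low values (1 FPKM or more in at least 2 libraries) changed between KO and WT in limma's test on log2(FPKM + 1). Of all 18214 genes tested, 0% were called higher and 0% lower at an adjusted p under 0.05; unadjusted, 0 of the 80 members passed 0.05, beside 1.28% of all genes higher and 21.1% lower. All 80 members had higher means in KO than in WT, with a median log2 difference of 2.07, beside 0.22 over all genes tested. That median rests on WT 2. Against WT 2 alone, 79 of the 80 members were called higher in KO (57.4% of 13875 genes were called higher there, and 22.7% lower), with a median of 4.70. Without WT 2 the median turned to -0.45. The comparison that follows is therefore between the 2 KO libraries and WT 1, where the spread comes from the KO pair alone and WT 1 is assumed to vary like it.

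Set against WT 1, most ribosomal protein mRNAs were modestly lower in both KO libraries, and none passed the test. As deposited, 75 of the 80 members had a negative log2 difference and 5 a positive one, with a median of -0.45, beside a median of -0.0021 over all 15867 genes tested. No member was called by limma, while 0.454% of all genes were called higher and 9.37% lower. Without adjustment, 12 of the 80 members had p under 0.05, each with a negative difference, beside 13.2% of all genes higher and 20.2% lower at that p. The smallest adjusted p of a member was 0.0671. Both KO libraries lay below WT 1 in 72 of the 80 members, beside 43% of all genes tested, and both lay above it in 4, beside 42.5%.

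The libraries also differed in their totals, and equal totals moved the members and all genes tested nearly alike. The members' median minus that of all genes tested was -0.45 as deposited and -0.42 after equal totals. The Ensembl genes summed to 817438 and 801266 FPKM in KO 1 and KO 2, against 952543 FPKM in WT 1. After each library was scaled to the same total, 68 members had a negative difference and 12 a positive one. The median was then -0.21, while the median of all genes tested was 0.21 and that of protein-coding genes 0.30. Again limma called no member, beside 0.712% of all genes called higher and 8.65% lower. Unadjusted, 5 of the 80 members had p under 0.05, all with negative differences, beside 19.9% of all genes higher and 17.5% lower at that p. The smallest adjusted p of a member was 0.0705. Which direction held more of the calls over all genes depended on the filter on low values. With a filter of 1 FPKM in at least 2 of the 3 libraries, more genes were called higher than lower after equal totals. Both KO libraries lay below WT 1 in 59 members (34.1% of all genes tested) and above it in 8 (52.3% of all genes tested).

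The size of this difference moved with the scaling. With totals of all features, MSTRG loci included, the members' median was -0.10. With protein-coding totals it was -0.24, with equal medians of the tested genes -0.32, and with quantile normalization -0.32. Leaving the members, 4 globin genes, S100a8 and S100a9 out of the protein-coding total gave -0.38. S100a8 and S100a9 alone, which encode abundant proteins of neutrophils, held 5.96% and 5.08% of the Ensembl FPKM in KO 1 and KO 2, against 14.02% in WT 1. The 4 globin genes held 7.23% and 9.80% of the Ensembl FPKM in KO 1 and KO 2, against 5.38% in WT 1, and the part of other cells in the members' difference was not tested. Apart from quantile normalization, each of these scalings moves the log2 values of a library by nearly the same amount for all genes. The members' median minus that of all genes tested was thus bound to stay close across them, at -0.44 to -0.41. With quantile normalization it was -0.53. The members' median minus that of all genes also depends on the filter. Without one on low values it was -0.07 after equal totals, over 30258 genes with a median of -0.14, and -0.21 as deposited. Scaled to the members' own total, their median was -0.0044, close to 0 by construction.

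**Figure D2:**
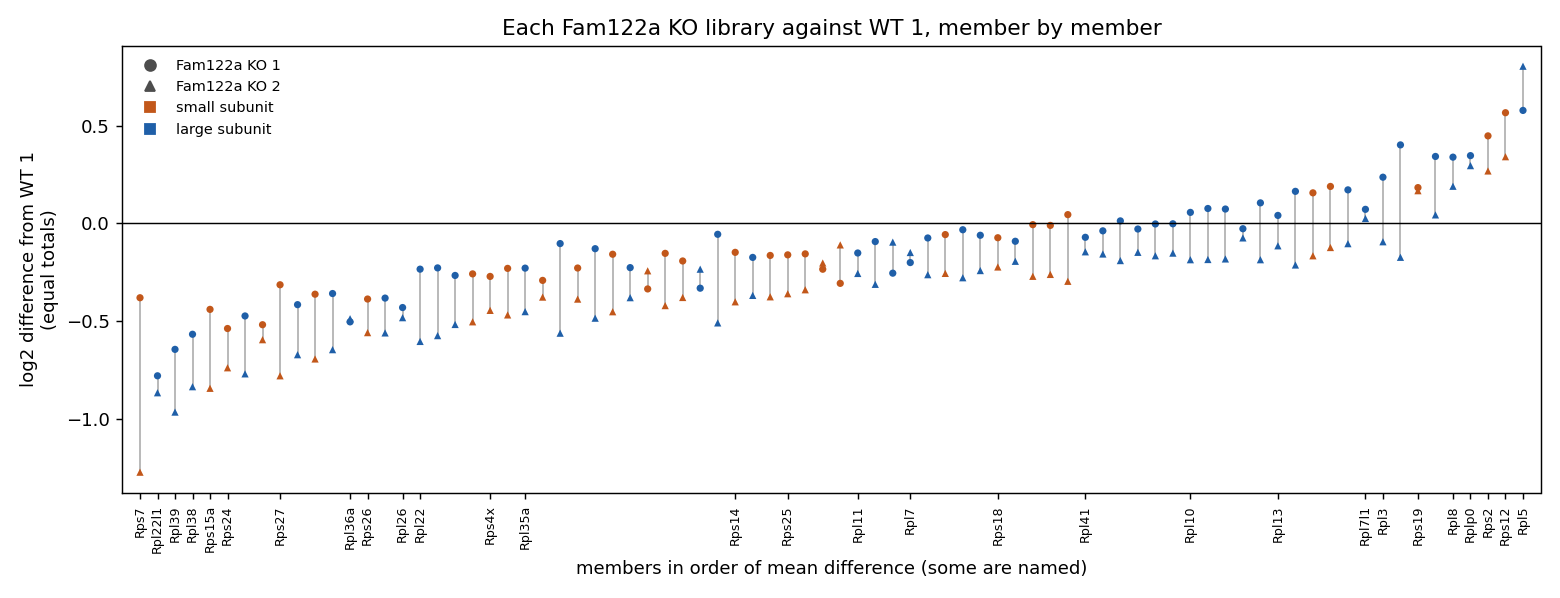
Log2 difference of each Fam122a KO library from WT 1 after equal totals (vertical axis), for the 80 members in order of their mean difference, some of them named; circles are KO 1, triangles KO 2, orange the small and blue the large subunit, and grey lines join the 2 KO values. The points of 59 members lie wholly below 0 and those of 8 wholly above it; the longest grey line is that of Rps7.

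The KO pair differed among themselves by a similar amount, as the plot of member differences shows. After equal totals KO 2 was below KO 1 in 72 of 80 members, with a median log2 difference of -0.20. KO 1 minus WT 1 had a median of -0.15, with 59 members below 0. KO 2 minus WT 1 had a median of -0.27, with 72 below 0. In 30 of the 80 members the gap between KO 1 and KO 2 was at least as large as the difference between the KO mean and WT 1.

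Small-subunit genes were a little further below WT 1 than large-subunit genes. As deposited the median log2 difference was -0.51 over 32 small-subunit genes and -0.40 over 48 large-subunit genes. After equal totals it was -0.28 for the small and -0.16 for the large subunit. The gap between the subunit medians was -0.12 on either scale, which was bound to be so, since scaling a library by 1 factor moves both subunits nearly alike. It was -0.15 without KO 1 and -0.10 without KO 2. Both KO libraries were below WT 1 in 26 of 32 small-subunit genes and in 33 of 48 large-subunit genes after equal totals. Summed, the small subunit held 2.23% and 1.91% of the Ensembl FPKM in KO 1 and KO 2, against 2.42% in WT 1 and 0.0859% in WT 2. The large subunit held 2.59% and 2.28% in KO 1 and KO 2, against 2.77% in WT 1 and 0.129% in WT 2.

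Among large-subunit genes, Rpl22l1, Rpl39 and Rpl38 were furthest below WT 1. Rpl22l1 (chr3:28805436-28807424, GRCm38, plus strand), a paralogue of Rpl22, had 95.2 and 87.9 FPKM in KO 1 and KO 2, against 191 FPKM in WT 1 and 11.8 FPKM in WT 2. Both KO values lay below WT 1, and the KO pair was close together. Its log2 difference from WT 1 was -0.82 after equal totals (SE 0.09), a ratio of 0.565, with an adjusted p of 0.0705 by limma. It was called with quantile normalization and with a filter of 1 FPKM in at least 2 of the 3 libraries, and under no other setting run against WT 1. Rpl39 (chrX:37082520-37085402, minus strand), which lines the exit tunnel of the nascent peptide, had 197 and 155 FPKM in KO 1 and KO 2, against 359.8 FPKM in WT 1 and 11.9 FPKM in WT 2. Its difference was -0.80 (SE 0.21, limma's adjusted p 0.144). Rpl38 (chr11:114668524-114672331, plus strand), known in mouse embryos for the translation of Hox mRNAs, had 369 and 299.8 FPKM in KO 1 and KO 2, against 637 FPKM in WT 1 and 20.4 FPKM in WT 2. Its difference was -0.70 (SE 0.18, limma's adjusted p 0.146). In all 3 genes both KO libraries were lower than WT 1, and WT 2 was lower than any of them.

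On the small subunit, Rps7, Rps15a and Rps24 had the most negative values. Rps7 (chr12:28630854-28635953, minus strand), which takes part in early rRNA processing, had 288 and 151 FPKM in KO 1 and KO 2, against 436 FPKM in WT 1 and 9.95 FPKM in WT 2. KO 2 was below KO 1 by more than in any other of the 80 members, with a log2 difference of -0.89 after equal totals. The difference from WT 1 was -0.83 with an SE of 0.54 (limma's adjusted p 0.377), and smaller with its copies added. Rps15a had 263 and 195 FPKM in KO 1 and KO 2, against 416 FPKM in WT 1 and 4.67 FPKM in WT 2. Its difference was -0.64 (SE 0.26, limma's adjusted p 0.226). Rps24 had 357 and 304.6 FPKM in KO 1 and KO 2, against 605 FPKM in WT 1 and 3.46 FPKM in WT 2, a difference of -0.64 (SE 0.15, limma's adjusted p 0.130). The KO values of Rps15a and Rps24 all lay below WT 1.

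A few members lay above WT 1 in both KO libraries. Rpl5 (chr5:107900502-107909005, plus strand), which with Rpl11 and 5S rRNA forms the particle that binds Mdm2, had 19.6 and 22.6 FPKM in KO 1 and KO 2, against 14.9 FPKM in WT 1 and 3.06 FPKM in WT 2. Its difference of 0.69 after equal totals (SE 0.19, limma's adjusted p 0.153) was the highest of the members, and an unchanged copy of its coding sequence held most of the signal, as given with the copies. Rps12 (chr10:23785183-23787275, minus strand), known in Drosophila for a part in cell competition, had 79.7 and 66.7 FPKM in KO 1 and KO 2, against 62.3 FPKM in WT 1 and 0 in WT 2. Its difference was 0.45 (SE 0.16, limma's adjusted p 0.193), and it turned negative with its copies added. At the depth of WT 2, a count of 0 for Rps12 allows up to 3 fragments, or 3.25 FPKM, and its copies summed to 45.9 FPKM there.

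The other 3 of the 5 highest differences belong to proteins with known places in the ribosome. Rps2, which lines the entry of the mRNA channel, had 866 and 749 FPKM in KO 1 and KO 2, against 739 FPKM in WT 1 and 10.2 FPKM in WT 2 (difference 0.36, SE 0.15, limma's adjusted p 0.240). Rplp0, the base of the stalk that recruits elongation factors, had 762 and 721 FPKM in KO 1 and KO 2, against 698 FPKM in WT 1 and 8.01 FPKM in WT 2. Its difference was 0.32 (SE 0.11, limma's adjusted p 0.187). Rpl8, which sits close to the peptidyl transferase centre, had 433 and 383 FPKM in KO 1 and KO 2, against 399 FPKM in WT 1 and 4.30 FPKM in WT 2, a difference of 0.26 (SE 0.12, limma's adjusted p 0.265). KO 2 was below WT 1 in Rpl8 as deposited and above it only after scaling. Measured against the median member in the same libraries, Rpl5, Rps12 and Rps2 had the largest mean deviations over the KO pair, with 0.76, 0.72 and 0.59 in KO 1 and 1.18, 0.67 and 0.60 in KO 2 on the log2 scale. Rps2, with a mean of 0.595, was level with Rps7 at -0.594 and Rpl22l1 at -0.594.

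The other stalk proteins lay near the middle of the family. Rplp1 had 787 and 680.1 FPKM in KO 1 and KO 2, against 956 FPKM in WT 1 and 7.84 FPKM in WT 2, a difference of -0.15 (SE 0.15). Rplp2 had 552 and 504 FPKM in KO 1 and KO 2, against 685 FPKM in WT 1 and 23.6 FPKM in WT 2, a difference of -0.14 (SE 0.11). Limma's adjusted p was 0.532 for Rplp1 and 0.441 for Rplp2.

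Mutations of several members cause Diamond-Blackfan anaemia in humans, a failure of red cell production. Of 7 such genes followed here, Rps14 of the 5q- syndrome included, 5 had negative and 2 positive differences after equal totals, and none was called. Rps19, the most often mutated of them, had 1032 and 1000.4 FPKM in KO 1 and KO 2, against 1059 FPKM in WT 1 and 20.7 FPKM in WT 2. Its difference was 0.18 after equal totals (SE 0.12, limma's adjusted p 0.386) and -0.06 as deposited, so the scaling decides its sign. Rps14 had 919.6 and 756 FPKM in KO 1 and KO 2, against 1187 FPKM in WT 1 and 31.1 FPKM in WT 2 (difference -0.27, SE 0.19). Both KO libraries lay below WT 1 in Rps14.

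Rps26 had 240.3 and 209 FPKM in KO 1 and KO 2, against 366 FPKM in WT 1 and 10.2 FPKM in WT 2, and its difference of -0.47 (SE 0.13, limma's adjusted p 0.153) came next after Rps24 in this group. Of the large-subunit genes, Rpl11 had 207 and 189 FPKM in KO 1 and KO 2, against 268 FPKM in WT 1 and 12.4 FPKM in WT 2 (difference -0.20, SE 0.10). Rpl35a had 428 and 359.7 FPKM in KO 1 and KO 2, against 585 FPKM in WT 1 and 32.8 FPKM in WT 2 (difference -0.34, SE 0.16). Rpl5, which belongs here too, was the exception described above.

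Fau and Rps27a are made as fusions with ubiquitin-like proteins. Fau encodes the ubiquitin-like Fubi joined to a small-subunit protein and had 201 and 226 FPKM in KO 1 and KO 2, against 290.4 FPKM in WT 1 and 0 in WT 2, where 3 fragments would give 4.10 FPKM. Gm9843, whose sequence is identical to the coding bases of Fau, had 181 and 118 FPKM in KO 1 and KO 2, against 197 FPKM in WT 1 and 23.3 FPKM in WT 2. Rps27a, joined to ubiquitin, had 503 and 392 FPKM in KO 1 and KO 2, against 754 FPKM in WT 1 and 38.5 FPKM in WT 2. Their differences after equal totals were -0.21 (SE 0.14) for Fau and -0.53 (SE 0.22) for Rps27a, with limma's adjusted p at 0.385 and 0.237.

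Mammals carry paralogues of some of these genes, and several are known to replace their partner in certain tissues. Of 9 pairs listed, both genes of 7 were in the libraries as protein-coding genes. The first 60 coding bases of pairs with both genes expressed are shown from the GENCODE M21 transcripts, 5′ to 3′, to show how far reads can tell the partners apart. Capitals in the second gene of Rps27 and of Rpl36a mark bases that differ from the first.
Rps27: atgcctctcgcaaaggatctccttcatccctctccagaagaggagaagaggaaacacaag
Rps27l: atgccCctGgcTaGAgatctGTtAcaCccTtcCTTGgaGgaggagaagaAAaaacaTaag
Rpl36a: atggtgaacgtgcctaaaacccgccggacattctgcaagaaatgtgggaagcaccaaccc
Rpl36al: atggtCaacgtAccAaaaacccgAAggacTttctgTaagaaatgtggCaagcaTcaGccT
Rpl22: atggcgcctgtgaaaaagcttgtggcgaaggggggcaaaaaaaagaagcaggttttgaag
Rpl22l1: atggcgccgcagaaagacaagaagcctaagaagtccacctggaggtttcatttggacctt

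These pairs can be told apart by sequence. Over their aligned coding bases, Rps27 and Rps27l were 76.2% identical, Rpl36a and Rpl36al 87.7%, Rpl22 and Rpl22l1 70.0%, and Rpl7 and Rpl7l1 52.4%. Rpl39 and Rpl39l were 85.0% identical, Rpl10 and Rpl10l 84.7%, and Rpl3 and Rpl3l 73.4%. FPKM is per length, but here per a length shortened by 215 to 260 nt, which weighs most on short mRNAs such as Rps27 (345 nt). Shares of a pair rest on that shortened length too, and its part in them was not tested.

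**Figure D3:**
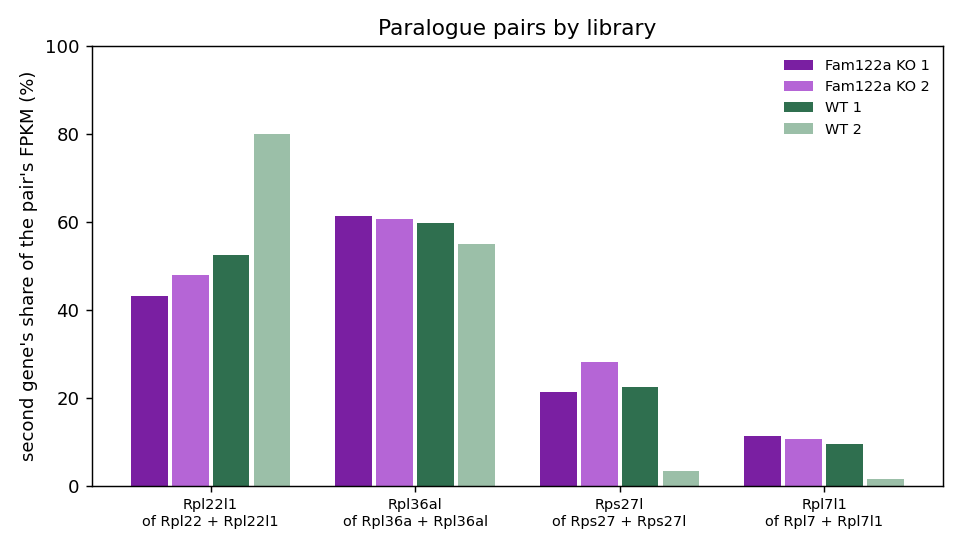
Share of the second gene in the summed FPKM of a paralogue pair (vertical axis, percent, from 0) in KO 1, KO 2, WT 1 and WT 2, without error bars because each bar is a single library. Rpl22l1 held 43.1% and 48.0% in KO 1 and KO 2, against 52.5% in WT 1 and 79.96% in WT 2; the share of Rpl36al was between 55.0% and 61.3% in all 4 with copies left out.

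In the Rpl22 pair the balance lay on opposite sides of an even split in the KO libraries and WT 1. In mouse cells Rpl22 is known to hold down the mRNA of Rpl22l1. Rpl22l1 made up 43.1% and 48.0% of the pair in KO 1 and KO 2, against 52.5% in WT 1 and 79.96% in WT 2. Rpl22 itself had 126 and 95.3 FPKM in KO 1 and KO 2, against 173 FPKM in WT 1 and 2.97 FPKM in WT 2, and its difference from WT 1 was -0.42 after equal totals (SE 0.23, limma's adjusted p 0.322). Both partners were thus below WT 1 in both KO libraries, Rpl22l1 by more. The shares of KO 1 and KO 2 differed by about as much as those of KO 2 and WT 1, and with 1 usable WT library the shift in share has no test.

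The Rpl36a pair had nearly the same balance in KO 1, KO 2 and WT 1. Rpl36al made up 61.3% and 60.8% of its pair in KO 1 and KO 2, against 59.8% in WT 1 and 55.0% in WT 2. Those shares leave out Rpl36a-ps2, which holds the whole coding sequence of Rpl36a unchanged and had 149 and 147 FPKM in KO 1 and KO 2, against 227 FPKM in WT 1 and 11.7 FPKM in WT 2. With the copies of both partners added, the share of Rpl36al was 48.1% and 47.9% in KO 1 and KO 2, against 47.6% in WT 1 and 65.8% in WT 2, on the other side of an even split in the first 3. Rpl36a had 200.2 and 198 FPKM in KO 1 and KO 2, against 331 FPKM in WT 1 and 12.8 FPKM in WT 2 (difference -0.50, SE 0.08, limma's adjusted p 0.0920, called against WT 1 only without a filter on low values). Rps27l, which is outside the member rule and is known as a target of p53, made up 21.3% and 28.3% of its pair in KO 1 and KO 2, against 22.4% in WT 1 and 3.32% in WT 2. Rps27 had 966 and 685 FPKM in KO 1 and KO 2, against 1399 FPKM in WT 1 and 81.2 FPKM in WT 2 (difference -0.55, SE 0.30, limma's adjusted p 0.320). It was the most abundant member in WT 2. Rps27rt (chr9:114982366-114982739, minus strand), a coding gene with the same coding sequence as Rps27 and no member, had 181 and 159 FPKM in KO 1 and KO 2, against 209.8 FPKM in WT 1 and 0 in WT 2. With the copies of Rps27 added, the share of Rps27l was 18.6% and 24.2% in KO 1 and KO 2, against 20.1% in WT 1 and 3.04% in WT 2.

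Rpl7l1 made up 11.3% and 10.6% of its pair with Rpl7 in KO 1 and KO 2, against 9.54% in WT 1 and 1.52% in WT 2. Rpl7 had 376 and 381.5 FPKM in KO 1 and KO 2, against 503 FPKM in WT 1 and 11.1 FPKM in WT 2. Rpl7l1 had 47.9 and 45.4 FPKM in KO 1 and KO 2, against 53.0 FPKM in WT 1 and 0.17 FPKM in WT 2. Its difference was 0.05 after equal totals and -0.18 as deposited, so its sign depends on the scaling.

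The tissue-restricted paralogues were at or near the floor, and they are the 3 members that did not pass the filter. Rpl3l, the partner of Rpl3 in heart and skeletal muscle, had 0.6 and 1.6 FPKM in KO 1 and KO 2, and was at 0 in WT 1 and WT 2. For Rpl3l, 3 fragments would give 0.393 and 0.446 FPKM in KO 1 and KO 2, against 0.620 FPKM in WT 1 and 1.03 FPKM in WT 2. Rpl3 had 753 and 587 FPKM in KO 1 and KO 2, against 744 FPKM in WT 1 and 18.1 FPKM in WT 2. Rpl10l and Rpl39l, known from the testis, were at 0 in KO 1, KO 2 and WT 1, where 3 fragments would give 0.575 to 0.901 FPKM of Rpl10l and 0.805 to 1.252 FPKM of Rpl39l. In WT 2 Rpl10l had 0.99 FPKM, under the 1.49 FPKM of 3 fragments there, and Rpl39l 2.36 FPKM. Their partners were well expressed. Rpl10, which joins the large subunit late in its assembly, had 376 and 312 FPKM in KO 1 and KO 2, against 421 FPKM in WT 1 and 37.1 FPKM in WT 2.

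For Rps4x and Rpl26, the partner listed was not among the protein-coding genes of the libraries. Rps4x had 389.5 and 338 FPKM in KO 1 and KO 2, against 548 FPKM in WT 1 and 10.6 FPKM in WT 2 (difference -0.36, SE 0.13). Rpl26 had 472 and 446 FPKM in KO 1 and KO 2, against 741 FPKM in WT 1 and 15.1 FPKM in WT 2 (difference -0.46, SE 0.10, limma's adjusted p 0.120). Both were below WT 1 in both KO libraries.

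Ribosomal protein genes are also known for their processed copies, mRNAs that were copied back into the genome. A copy was counted here where a gene of the files matched at least 80% of a member's coding sequence at 95% identity or more. Of the 83 members, 78 had at least 1, with a median of 4 and at most 53 (Rpl21). In all there were 529 copies, 512 of them annotated as pseudogenes. Their summed FPKM was 15.3% and 14.5% of members plus copies in KO 1 and KO 2, against 14.5% in WT 1 and 57.0% in WT 2. How reads that match a gene and its copy were assigned is not given in the sources used here, so the level of a member with such a copy is uncertain.

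In 7 members, Rpl5, Rpl12 and Rps12 among them, the copies summed to more than the member itself in WT 1. The whole coding sequence of Rpl5 occurs unchanged in Gm15500 (chr7:114705217-114706235, minus strand), and that of Rpl12 in Gm10275 (chr10:29698746-29699380, minus strand), so that the first 60 coding bases printed here are those of both gene and copy, in GENCODE M21.
Rpl5 and Gm15500: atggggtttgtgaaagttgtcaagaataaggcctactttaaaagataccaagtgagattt
Rpl12 and Gm10275: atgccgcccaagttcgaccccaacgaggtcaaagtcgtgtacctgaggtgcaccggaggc

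Against 19.6 and 22.6 FPKM for Rpl5 in KO 1 and KO 2 and 14.9 FPKM in WT 1, Gm15500 had 336 and 309 FPKM in KO 1 and KO 2, 450.2 FPKM in WT 1 and 11.9 FPKM in WT 2. Rpl12 had 17.4 and 11.2 FPKM in KO 1 and KO 2, against 15.1 FPKM in WT 1 and 6.71 FPKM in WT 2, while Gm10275 had 314 and 313 FPKM in KO 1 and KO 2, against 381 FPKM in WT 1 and 15.6 FPKM in WT 2. In both pairs the copy carried most of the signal in every library. With copies added, Rpl5 came to 356 and 332 FPKM in KO 1 and KO 2, against 468 FPKM in WT 1, and its difference after equal totals was -0.21 in place of 0.69.

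**Figure D4:**
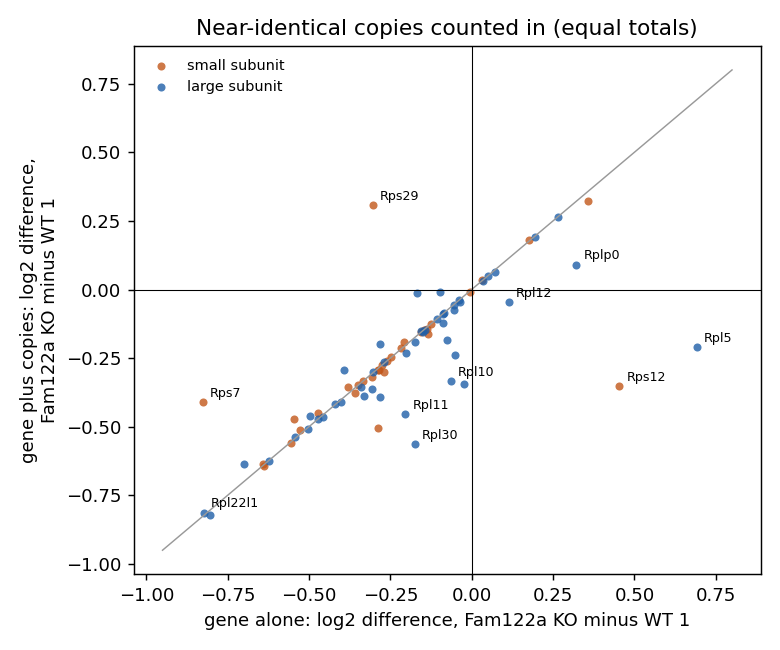
Log2 difference between Fam122a KO and WT 1 after equal totals for each member alone (horizontal) and for the member with its near-identical copies added (vertical); orange is the small and blue the large subunit, and the grey diagonal marks equal values. Most genes lie on the diagonal; Rpl5 and Rps12 cross from above 0 to below it, at -0.21 and -0.35, and Rps29 crosses to 0.31.

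Among small-subunit genes Rps12, Rps7 and Rps29 moved most when copies were added. Rps12 with its copies, among them Rps12l1 and Rps12-ps3, came to 514 and 396 FPKM in KO 1 and KO 2, against 679 FPKM in WT 1 and 45.9 FPKM in WT 2, a difference of -0.35 in place of 0.45. For Rps7, the copy Gm6472 had 117 FPKM in KO 2 and was at 0 in KO 1, WT 1 and WT 2. Rps7 with copies had 290.6 and 273 FPKM in KO 1 and KO 2, against 440.5 FPKM in WT 1 and 11.03 FPKM in WT 2, so the KO pair then lay close together, and the difference was -0.41 in place of -0.83. Rps29, with 1069.8 and 855 FPKM in KO 1 and KO 2, against 1390.5 FPKM in WT 1 and 26.8 FPKM in WT 2, turned from -0.30 to 0.31 through the copy Gm14303. That copy had 1997 and 1412 FPKM in KO 1 and KO 2, against 1119 FPKM in WT 1 and 0 in WT 2.

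The picture of the whole family changed little. Members summed with copies had a median difference of -0.26 after equal totals, with 70 below 0 and 10 above, and -0.50 as deposited. The 49 members whose copies averaged under 10 FPKM in all had a median of -0.22, with 42 below 0. Of the genes above WT 1 named earlier, Rps2 stayed at 0.32 and Rpl8, which has no such copy, at 0.26, while Rplp0 was at 0.09.

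Within the family the difference from WT 1 went with coding length, and over all 80 members less with the length of the mRNA. Across the 80 members, the log2 difference after equal totals correlated with log2 coding length at Pearson's r = 0.51 and Spearman's rho = 0.59. It did so with KO 1 alone (rho = 0.61) and with KO 2 alone (rho = 0.52), which share WT 1. For KO 2 minus KO 1, rho was -0.02 over the members and 0.14 over 13064 other coding genes (Pearson's r 0.08). The correlation of the difference from WT 1 was 0.71 over the 48 large-subunit genes and 0.43 over the 32 of the small subunit (Spearman). Over the 49 members with few copy reads it was 0.59. Over 13064 other coding genes it was 0.09, with Pearson's r at -0.05. With mRNA length in place of coding length, rho was 0.41 over the members, 0.67 over the large subunit and 0.06 over the small subunit. Pearson's r over the large subunit was 0.65 with mRNA length and 0.61 with coding length. Over the small subunit it was -0.05 with mRNA length and 0.31 with coding length. Genes of 1 library share its depth and fragment lengths, so these figures describe the libraries and carry no test.

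**Figure D5:**
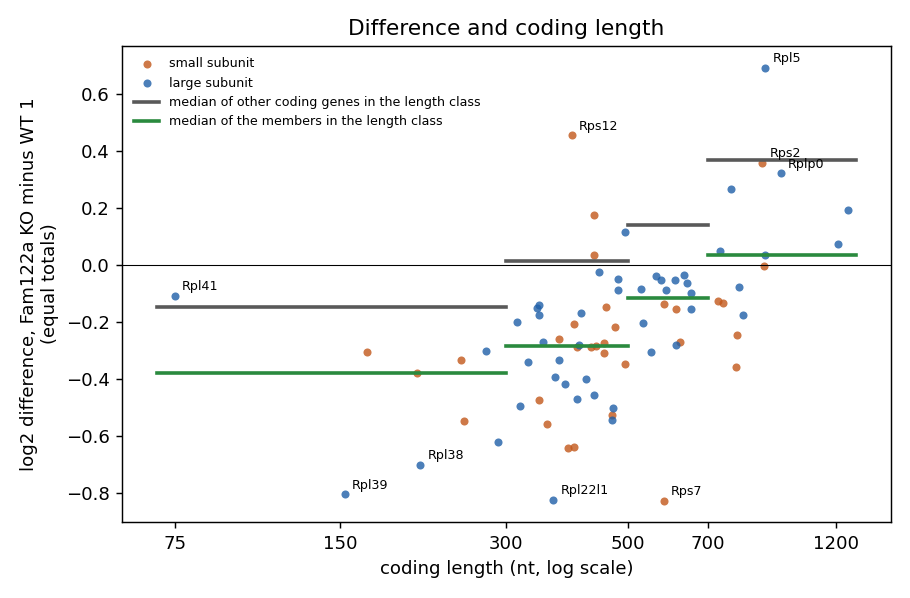
Log2 difference between Fam122a KO and WT 1 after equal totals (vertical) against coding length (nt, log scale) for the 80 members, orange for the small and blue for the large subunit; green lines are member medians and grey lines the medians of other coding genes in 4 length classes, the last of them open-ended and, among other genes, mostly of longer genes. Both sets of medians climb with length, from -0.38 to 0.03 for members and from -0.15 to 0.37 for other genes, and the green line is the lower in each class.

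The medians of other coding genes in the same length classes lay higher, and also climbed with length. Length classes were set after the values were seen. Under 300 coding bases, the 9 members had a median of -0.38, all below 0, and 300 other coding genes had -0.15. From 300 to 500 bases, 40 members had a median of -0.29, with 36 below 0, and 908 other genes had 0.01. Between 500 and 700 bases, 16 members had a median of -0.12, all below 0, and 1197 other genes had 0.14. At 700 bases or more, 15 members had a median of 0.03, with 7 below 0, and 10659 other genes had 0.37. The longest member has 1257 coding bases, and the 1833 other genes of that class below 1000 bases had a median of 0.27. In each class the members' median was the lower. The deposited values follow a length from which 260 and 255 nt were taken off in KO 1 and KO 2, against 245 nt in WT 1 and 215 nt in WT 2, which sets the FPKM of short transcripts, and the part of this in the length relation was not tested.

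The promoters of ribosomal protein genes are known to be short, often without a TATA box, and to start transcription at a C within a run of pyrimidines. RefSeq promoters (GRCm38.p6, 250 bases before to 50 after the start) were at hand for 63 of the 83 members. Stretches of 100 bases, from 80 before to 20 after the start, are shown 5′ to 3′ on the strand of the gene for Rpl38 (chr11:114668500-114668599, plus), Rps7 (chr12:28635934-28636033, minus), Rpl22 (chr4:152325646-152325745, plus) and Rpl22l1 (chr3:28805428-28805527, plus), of which Rpl38 and Rps7 are low members that hold the motif in capitals and the other two are the paralogue pair whose balance differed. Capitals mark CCGGAAG, the core bound by ETS factors, or its complement CTTCCGG.
Rpl38: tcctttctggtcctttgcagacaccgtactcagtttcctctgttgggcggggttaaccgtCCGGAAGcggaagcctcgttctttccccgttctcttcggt
Rps7: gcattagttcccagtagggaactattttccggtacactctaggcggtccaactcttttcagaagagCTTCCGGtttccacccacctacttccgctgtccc
Rpl22: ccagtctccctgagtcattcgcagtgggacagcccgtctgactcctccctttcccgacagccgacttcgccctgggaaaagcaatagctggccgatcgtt
Rpl22l1: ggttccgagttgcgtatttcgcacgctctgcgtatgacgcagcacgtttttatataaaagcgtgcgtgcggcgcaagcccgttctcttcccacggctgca

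CCGGAAG, on either strand, was in 24 of the 63 promoters (38.1%), beside 9.1% of 27025 RefSeq promoters of the same length. A C followed by 5 bases that are each C or T, within 10 bases of the start and on the strand of the gene, was in 46.0% of the members' promoters, beside 15.1% of all. A run of 5 bases that are each C or T from the annotated start itself was in 25.4%, beside 4.4% of all. GGGCGG, the GC box, was in 60.3%, beside 35.9% of all, and TATAAA in 9.5%, beside 14.2% of all. AAGATGGCG, bound by YY1, was in 6.3%, beside 1.5% of all, and the palindrome known as the Kaiso motif in 7.9%, beside 0.5% of all. The 4 motifs after the pyrimidine runs were searched on both strands too, and AAGATGGCG can begin on the last 3 bases of CCGGAAG. A match is a stretch of letters and no measured binding. Members with and without a motif overlapped in their difference from WT 1. The 23 tested members with CCGGAAG had differences between -0.83 and 0.36 after equal totals, with a median of -0.26, and the 37 without it between -0.82 and 0.69, with a median of -0.17. The 28 tested members with a C followed by 5 pyrimidines within 10 bases of the start had a median of -0.19, and the 32 without it -0.25.

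Other genes of translation and ribosome production had higher medians than the ribosomal proteins, and limma called none of the genes in the 5 lists that follow. Of 26 genes of translation elongation and other TOP mRNAs, 14 had positive and 12 negative differences from WT 1 after equal totals, with a median of 0.13; unadjusted, 3 were higher at p under 0.05 and 0 lower. Over all 13174 protein-coding genes tested, 65.5% had a positive difference, 22.5% were higher and 13.1% lower at an unadjusted p under 0.05, which is the background for the counts of each list. Eef2, the elongation factor that moves the ribosome along the mRNA and itself a TOP mRNA, had 389 and 325 FPKM in KO 1 and KO 2, against 186 FPKM in WT 1 and 8.47 FPKM in WT 2. Its difference was 1.16 (SE 0.16, limma's adjusted p 0.0842), opposite in sign to most members.

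Of 50 assembly and rRNA processing genes, 40 were positive and 10 negative, with a median of 0.38, beside 0.30 over all protein-coding genes, and 15 were higher and 1 lower at an unadjusted p under 0.05. Rrp1, a factor of large-subunit assembly, had 189 and 178 FPKM in KO 1 and KO 2, against 110.4 FPKM in WT 1 and 1.57 FPKM in WT 2 (difference 0.96, SE 0.08, limma's adjusted p 0.0558). Bop1, which acts in the same pathway, had 50.4 and 49.9 FPKM in KO 1 and KO 2, against 27.7 FPKM in WT 1 and 0 in WT 2 (difference 1.06, SE 0.09, limma's adjusted p 0.0566). Of 30 genes of RNA polymerases I and III, which make rRNA and tRNA, 26 were positive and 4 negative, with a median of 0.48, and 13 were higher and 1 lower at an unadjusted p under 0.05. Maf1, the repressor of RNA polymerase III, had 197 and 183 FPKM in KO 1 and KO 2, against 100.2 FPKM in WT 1 and 0.73 FPKM in WT 2 (difference 1.15, SE 0.09, limma's adjusted p 0.0518). Both KO values of these 3 genes lay above WT 1.

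Of 21 genes of ribosome quality control and of the mTORC1 control of TOP mRNAs, 19 were positive and 2 negative, with a median of 0.47, and 8 were higher and 0 lower at an unadjusted p under 0.05. Usp10, which removes ubiquitin from ribosomal proteins of stalled small subunits, had 61.5 and 74.4 FPKM in KO 1 and KO 2, against 22.6 FPKM in WT 1 and 4.19 FPKM in WT 2 (difference 1.76, SE 0.20, limma's adjusted p 0.0737). The ligase Rnf10, which adds ubiquitin to small-subunit proteins, had 98.0 and 113 FPKM in KO 1 and KO 2, against 49.1 FPKM in WT 1 and 4.83 FPKM in WT 2 (difference 1.31, SE 0.16, limma's adjusted p 0.0770).

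The 78 mitochondrial ribosomal proteins, whose ribosome translates mitochondrial mRNAs, had values between those of the cytosolic members and the assembly genes, with 45 positive, 33 negative and a median of 0.02 after equal totals. Unadjusted, 10 were higher and 4 lower at p under 0.05. As deposited their median was -0.20, beside -0.45 for the cytosolic members. Their median coding length was 582 nt, longer than that of the cytosolic members (445.5 nt for the small and 480 nt for the large subunit). That of the assembly genes was 1495.5 nt. Since length went with the difference in these libraries, its part in the contrast between the lists was not tested.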

How the data were processed

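Per the submitters' processing notes, STAR 2.7.1a, HISAT2 2.1.0 and bcl2fastq were used with the builds GRCm38.p5 and mm10, without roles. Each deposited file holds 1 value per feature, taken as FPKM; this unit was inferred from the values, and the tool that made them is not given in the sources used here. Low values fell on whole fragments (within 0.1) for 84.1% to 91.3% of the genes checked once a fixed length was subtracted from the transcript, which gave the depths; floors of 3 fragments cover counting error only. Symbols, types, coordinates and coding sequences came from GENCODE M21, MSTRG loci were left out of tests, and promoters came from RefSeq. Limma 3.58.1 (R 4.3.3, trend) was fitted to log2(FPKM + 1) of all genes with Benjamini-Hochberg adjustment and calls at 0.05: over 4 libraries (1 FPKM in at least 2), and over KO 1, KO 2 and WT 1 (mean of 1 FPKM), as deposited and scaled to equal Ensembl totals. The fold change on this scale understates that of low genes. The fits were checked on simulated data. Copies were found with blastn 2.17.0 and paralogues aligned with MAFFT 7.526. The labels call the libraries of a group biological replicates, from separate pools. The members, lists and tests were chosen with earlier results of these data known. Named with values were paralogue pairs, the 5 highest means, the 5 highest and 5 lowest differences of members with a mean of at least 10 FPKM, anaemia genes, any called member, the 3 most unlike the rest, and at most 4 genes of each other list; Rplp1, Rplp2, Fau, Rps27a, Rpl12, Rps29 and the copies were added after their values were seen, and a few genes that fall under the rule are not reported here. Alternatives were other pseudocounts, filters, scalings, a replicate block, libraries left out, and copies summed in.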

Additional observations from a re-analysis of the deposited data

How the results depend on the processing

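The count of called members was 0 under every alternative to the 4-library comparison except without WT 1, so leaving out 1 library gave counts from 0 to 79 and medians from -0.45 (without WT 2) to 4.70 (without WT 1). Same-numbered libraries did not deviate together (correlation 0.06 over 18214 genes), and a fit with the replicate block also called 0 members at the same median of 2.07. Against WT 1, 1 member was called as deposited without a filter on low values (Rpl36a). After equal totals 1 was called without a filter (Rpl36a), 1 with a filter of 1 FPKM in at least 2 of 3 libraries (Rpl22l1) and 1 with quantile normalization (Rpl22l1). The median after equal totals was -0.38 with members, globins, S100a8 and S100a9 left out of the coding total, -0.0044 with the members' own total, and -0.27 to -0.15 with 1 KO library left out; the gap between subunits was then -0.15 to -0.10. With 1 KO library left out there was no residual spread and no test. Members and paralogue shares summed with copies and the subunit gap after equal totals were added after the data were seen. The replicate block and the filter at 5 FPKM were run for counts and medians, and not for single genes.

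Single members changed sign mainly when WT 2 was added: over 4 libraries with equal totals the differences were 1.33 for Rpl10, 1.63 for Rpl11, 2.52 for Rpl13, 2.01 for Rpl22, 0.80 for Rpl22l1, 1.98 for Rpl26, 1.38 for Rpl35a, 1.47 for Rpl36a, 1.41 for Rpl38, 1.27 for Rpl39, 2.23 for Rpl41, 2.19 for Rpl7, 1.996 for Rps14, 2.15 for Rps15a, 2.73 for Rps18, 2.61 for Rps24, 2.19 for Rps25, 1.72 for Rps26, 1.16 for Rps27, 2.098 for Rps4x and 1.51 for Rps7. Values near 0 also crossed it. With 1 KO library left out, Rpl10 ran from -0.19 to 0.057, Rpl13 from -0.11 to 0.041 and Rpl3 from -0.094 to 0.24. As deposited Rpl3 was at -0.16, Rpl7l1 at -0.18 and Rps19 at -0.059, and with quantile normalization Rpl3 was at -0.025 and Rpl7l1 at -0.29. Depth limits WT 2 most, where the median member had 17.9 estimated fragments.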
